A study of Homo sapiens with 6 samples.

Results

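Genes of vesicle trafficking and SNARE-mediated fusion were chosen from the deposited transcriptome table by the start of their symbol, which takes in the RAB GTPases, syntaxins, VAMP and SNAP proteins, VTI1B, BET1, synaptotagmins, adaptor complexes, vesicle coats, sorting nexins, VPS proteins and tethers. Of 65 genes with such a name, 4 antisense genes and 1 pseudogene were left out, and the remaining 60 genes, all protein-coding, make up 60 of the 4101 genes of the table. The name rule does not look at expression, but it takes in genes by spelling alone, and a few of them (SEC11A, SEC14L1 and SEC14L5) have no established role in vesicle coats. The annotation used here holds 323 protein-coding genes with such names, and those outside the table, among them STX1A and VAMP2, were not analysed here.

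RNA was sequenced from SH-SY5Y cells, a human neuroblastoma line used as a model of dopaminergic neurons, with a WT genotype in all samples. The METH-treatment group (3 libraries) received 2 mM methamphetamine (METH), a psychostimulant that redistributes monoamines out of their vesicles, for 24 h, and the PBS-treatment group (3 libraries) received PBS. The sample labels give day 0 as the time of every library, and nothing in them says whether the libraries of a group came from separate cultures, so p-values measure the spread between these libraries. All 6 libraries come from 1 cell line, and each was deep, with denominators of 85.7 to 110.77 M reads.

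Membrane cargo moves between compartments in vesicles that bud under coat and adaptor proteins, are steered and tethered by RAB GTPases and their partners, and fuse when SNARE proteins on the vesicle and on the target membrane zip together. In neurons and neuroendocrine cells this machinery also carries regulated secretion: synaptotagmins sense calcium, SNARE-binding proteins help or limit the assembly of the SNAREs, and RAB3 proteins mark the secretory vesicles. Monoamines are stored in synaptic and dense-core vesicles that depend on these proteins for their release.

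Of the 60 trafficking genes, 50 (83.3%) had a higher mean log2 level in the METH-treatment group, against 50.4% of all genes of the table. With limma, 31 passed an adjusted p of 0.1 as higher (background 33.3% of the table), 8 as lower (background 35.8%), and 21 passed in neither direction. In 31 genes every METH library lay above every PBS library (31.0% of the table did so), in 6 every METH library lay below (33.0%), and in 23 the groups overlapped. The share called higher was thus above the table's, and the share called lower was below it. The median log2 fold change of the 60 genes was 0.56. Over the table it was 0.11, and -0.09 without these 60 genes, because the table holds few genes near 0. In absolute size the trafficking genes moved slightly less than the table, with a median of 0.63 against 0.73 on the log2 scale.

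All genes of this table had an unadjusted p under 0.1 in the authors' comparison of the same libraries (the largest was 0.09998). All of these counts thus stand on a selected background. This cut was read from the p-values, whereas the paper names an adjusted p under 0.1. Adjusted over the 15724 genes that the authors' adjustment implies, limma called 5 of the 60 trafficking genes higher (7.71% of the table) and 1 lower (7.49%). The higher ones were STX3, SYT2, SYT11, SNX7 and RAB3C, and the lower one was RAB36. With this adjustment the share called higher was close to the table's. The calls also moved with single libraries. Higher calls numbered 14 without PBS 12, 9 without METH 1 and 6 without METH 2, while lower calls numbered 5 without PBS 10, PBS 12 or METH 3, 3 without METH 2 and 1 without METH 1. The same libraries moved the whole table, in which 2833 genes were called with 6 libraries and 975 without METH 2. Higher calls over its 4101 genes numbered 747 without PBS 12, 491 without METH 1 and 412 without METH 2. Without METH 2 the share of the 60 genes called higher was thus no longer above the table's. RAB3C, RAB36, RAB3IL1, STX3, SNX7, SYT2 and SYT11 were called whichever library was left out, and the other 32 called genes were not. The directions moved less: 50 genes were higher and 9 lower in every setting that included them, and VAMP1 changed sign. Every setting reused the libraries in which the genes had been selected, so a steady direction was favoured in advance and is no independent support.

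**Figure D1:**
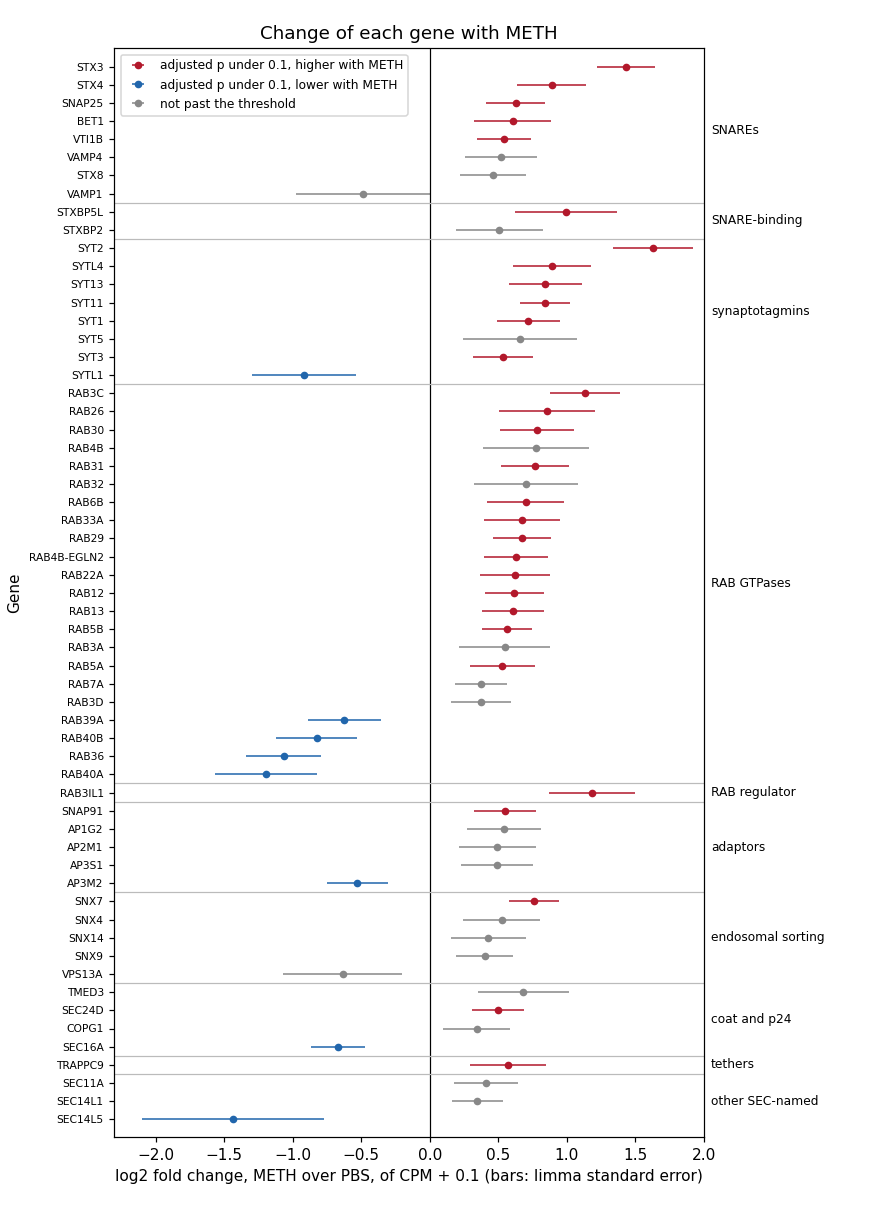
Log2 fold change of 59 of the 60 trafficking genes (x axis, METH over PBS, of CPM + 0.1) with its limma standard error, grouped by role on the y axis. Red points passed an adjusted p of 0.1 as higher (30), blue points as lower (8) and grey points did not pass (21), and most points of every role with more than 1 gene lie to the right of 0.

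Promoter sequence was looked at because most of the 60 genes moved the same way. RefSeq windows (GRCh38.p14, 250 bases before to 50 after a start) matched 50 of the 60 genes by symbol, with 72 windows. On either strand, the cAMP response element TGACGTCA was in 0 of the 72 windows (3.12% of the windows of the table's genes and 1.85% of all 35116 windows), and the endoplasmic reticulum stress element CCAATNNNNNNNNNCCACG was in 0 (0.119% and 0.0769%). The unfolded protein response element TGACGTGG was in 1 window, that of SEC16A (1.39%, against 0.787% and 0.729%). The E-box CACGTG was in 7 windows of 7 genes (9.72%, against 8.95% and 7.26%), called higher in 4 genes (RAB29, RAB5A, STX4 and RAB31), lower in SEC16A and in neither direction in SEC14L1 and STXBP2. The motifs can overlap each other by some bases. The following stretches of 60 bases, on the strand of the gene, show the E-box in capitals where it lies before the RefSeq start of its window, because this was the motif that the most trafficking genes held.
RAB5A (chr3:19946956-19947015, plus strand): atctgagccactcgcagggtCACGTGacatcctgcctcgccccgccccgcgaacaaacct
SEC16A (chr9:136484769-136484828, minus strand): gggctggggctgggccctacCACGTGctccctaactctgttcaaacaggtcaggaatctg
STX4 (chr16:31033276-31033335, plus strand): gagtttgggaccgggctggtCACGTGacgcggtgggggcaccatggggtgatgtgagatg
RAB31 (chr18:9708221-9708280, plus strand): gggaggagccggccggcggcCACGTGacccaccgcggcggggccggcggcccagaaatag
STXBP2 (chr19:7637050-7637109, plus strand): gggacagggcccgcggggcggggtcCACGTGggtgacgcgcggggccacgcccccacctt
A gene can have several RefSeq starts, and the stretches of STX4, RAB31 and STXBP2 lie inside the GENCODE gene bounds, which begin further upstream. These 5 genes include 3 that were called higher and 1 that was called lower. Among all 60 trafficking genes, 31 were called higher and 8 lower (33.3% and 35.8% over the table). A link between the E-box and the calls was not tested. A match of letters is a description and not a binding site.

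The SNAREs are the proteins that carry out membrane fusion. Of the 8 in the table, 7 had a positive log2 fold change, 5 were called higher and none was called lower by limma at an adjusted p of 0.1, by edgeR or by DESeq2, with 0 at an unadjusted limma p under 0.05. The 5 calls (33.3% of the whole table were called higher) fell to 1 with adjustment over 15724 genes, to 1 without METH 2 and to 2 without METH 1 or PBS 12. STX3 (chr11:59713456-59805882, plus strand, GRCh38), a plasma membrane syntaxin, stood at 9.84, 14.2 and 10.9 CPM in PBS 10, PBS 11 and PBS 12 and at 29.3, 32.1 and 32.1 CPM in METH 1, METH 2 and METH 3. The lowest METH library was thus above the highest PBS library, and the group means were 11.6 ± 2.26 and 31.2 ± 1.66 CPM (SD, n = 3 libraries each). Its log2 fold change was 1.43 ± 0.211 (limma SE, adjusted p 0.00561), the largest of the SNAREs.

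STX4 (chr16:31032889-31042975, plus strand), one of the E-box genes above and the plasma membrane syntaxin of constitutive and insulin-regulated exocytosis, was at 15.7, 25.4 and 21.9 CPM with PBS and 47.0, 39.3 and 30.1 CPM with METH. Again the groups did not overlap, although METH 3 was closer to PBS 11 than to METH 1. The log2 fold change was 0.89 ± 0.253 (adjusted p 0.0311), and the adjusted p rose to at most 0.106 when a library was left out.

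SNAP25 (chr20:10218830-10307418, plus strand), the plasma membrane SNARE of neuronal exocytosis, was at 36.2, 31.5 and 24.6 CPM with PBS and 41.5, 47.6 and 52.5 CPM with METH. No PBS library reached the lowest METH library, and here METH 3 was the highest. The log2 fold change was 0.63 ± 0.215 (adjusted p 0.0478). Its partner in the neuronal fusion complex on the vesicle side, VAMP1 (synaptobrevin 1), was at 3.02, 4.19 and 4.49 CPM with PBS and at 3.60, 4.94 and 1.10 CPM with METH, so the groups overlapped. Its log2 fold change was -0.48 (adjusted p 0.358), and without METH 3 it was 0.13.

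Among the SNAREs of intracellular compartments, VTI1B (chr14:67647075-67674831, minus strand), which acts in fusion at late endosomes, was at 67.2, 83.4 and 71.6 CPM with PBS and 117, 111 and 95.3 CPM with METH. The groups did not overlap, and the log2 fold change was 0.54 ± 0.196 (adjusted p 0.0547). BET1 (chr7:93962762-94004382, minus strand), a SNARE of transport from the endoplasmic reticulum to the Golgi, was at 13.4, 19.4 and 9.63 CPM with PBS and 25.3, 19.1 and 18.4 CPM with METH. PBS 11 lay above METH 2 and METH 3. BET1 was called higher by limma (0.61 ± 0.281, adjusted p 0.0912) and narrowly by DESeq2 (adjusted p 0.0999), but not by edgeR (adjusted p 0.104). VAMP4, a SNARE of the trans-Golgi network (0.52, adjusted p 0.108), and STX8 of late endosomes (0.46, adjusted p 0.118) did not pass with limma. VAMP4 did pass with edgeR (adjusted p 0.0930) and DESeq2 (adjusted p 0.0870). VTI1B shares 904 of its 5789 exonic bases with ARG2 on the other strand. The strand setting of the counting is not given in the sources used here, so reads on those bases cannot be told apart.

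SNARE-binding proteins help or hinder the assembly of the fusion complex. STXBP5L, a tomosyn that limits SNARE assembly, was at 1.56, 1.85 and 0.773 CPM with PBS and 3.65, 2.19 and 2.51 CPM with METH, again without overlap (1.00 ± 0.373, adjusted p 0.0589). STXBP2, known for its part in granule release by blood cells, was low (0.993 to 2.27 CPM in all libraries) and did not pass (0.51, adjusted p 0.160).

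Synaptotagmins are vesicle proteins with C2 domains, and several of them trigger fusion when calcium binds. Of 8 synaptotagmin and synaptotagmin-like genes, 6 were called higher and 1 lower, with a median log2 fold change of 0.78 (33.3% higher and 35.8% lower over the whole table). The 7 calls fell to 2 with adjustment over 15724 genes, to 2 without METH 2 and to 3 without METH 1. SYT2 (chr1:202590596-202710417, minus strand), a fast calcium sensor, was at 0.812, 0.726 and 1.08 CPM with PBS and 3.06, 3.19 and 2.43 CPM with METH, and it had the largest increase of the 60 genes. The groups were far apart relative to their spread, and the log2 fold change was 1.63 ± 0.290 (adjusted p 0.00927). These levels rest on 63 to 101 reads in a PBS library and on 260 to 290 in a METH library, and SYT2 shares 2111 exonic bases with PPP1R12B on the other strand.

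SYT1 (chr12:78863993-79452008, plus strand), the principal calcium sensor of fast release in forebrain neurons, was at 12.3, 13.2 and 9.08 CPM with PBS and 15.9, 20.4 and 20.6 CPM with METH. The groups did not overlap (0.72 ± 0.230, adjusted p 0.0404), and METH 1 was the METH library nearest to PBS. SYT11 (chr1:155859509-155885199, plus strand), which does not bind calcium and acts in vesicle retrieval, was at 59.3, 66.8 and 62.5 CPM with PBS and 116, 120 and 102 CPM with METH. It had the most reads per kilobase of the called synaptotagmins with PBS (12 CPM per kb, against 3.00 for SYT1 and 0.115 for SYT2), and its log2 fold change was 0.84 ± 0.185 (adjusted p 0.0170).

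SYT13, another form without calcium binding, rose by 0.84 on the log2 scale (adjusted p 0.0393) and SYT3 by 0.53 (adjusted p 0.0711), while SYT5 of dense-core vesicles did not pass (0.66, adjusted p 0.164). The synaptotagmin-like proteins, which bind RAB27 on secretory granules, moved in opposite directions. SYTL4 (granuphilin) was at 0.524, 0.484 and 0.548 CPM with PBS and 1.02, 1.06 and 1.07 CPM with METH (0.89 ± 0.287, adjusted p 0.0416). The spread within each group was small next to the difference, but SYTL4 shares 1298 exonic bases with SRPX2 on the other strand. SYTL1 was at 1.61, 4.4 and 2.67 CPM with PBS and 1.51, 1.54 and 1.09 CPM with METH (-0.92 ± 0.380, adjusted p 0.0731). There the highest METH library was just under PBS 10.

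**Figure D2:**
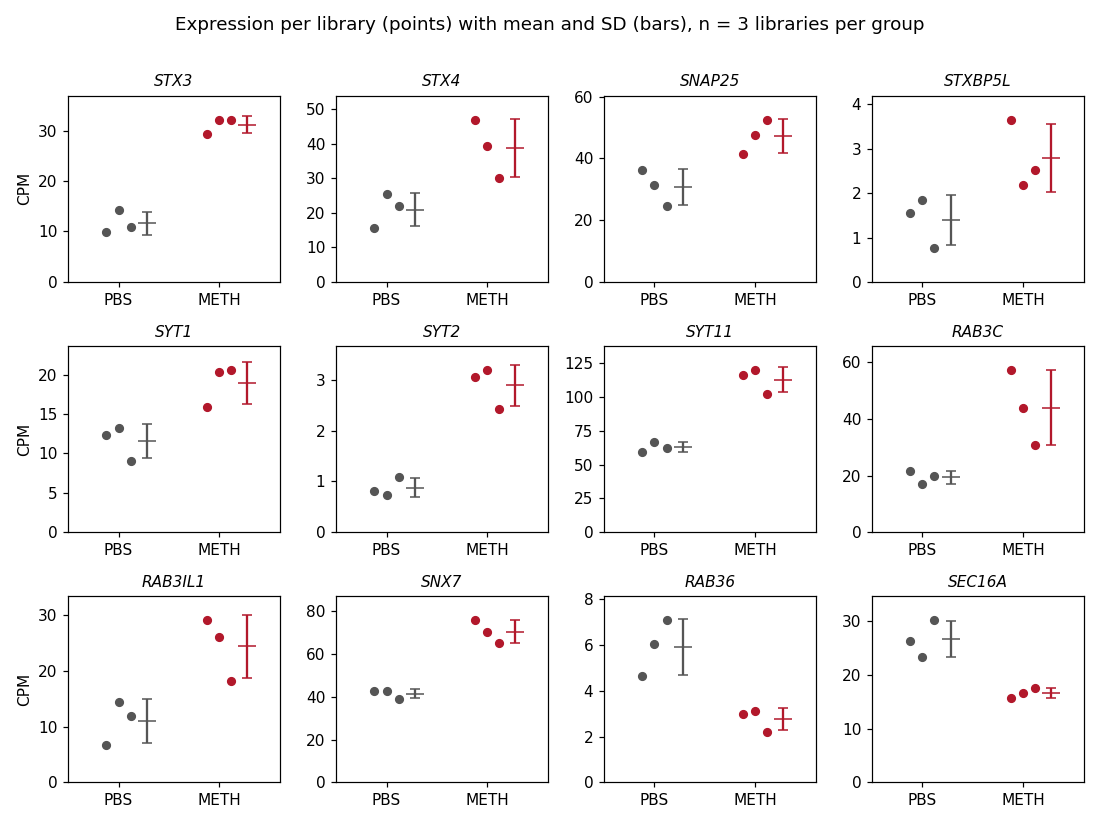
CPM (y axis, from 0) of 12 trafficking genes in the 3 PBS libraries (grey points) and the 3 METH libraries (red points), in library order, with the mean and SD of each group beside them. The groups do not overlap in any of the 12 genes, most of which were named under a rule that required this. Of all 60 genes, 31 had every METH library above every PBS library (31.0% of the table), 6 below (33.0%) and 23 overlapping groups. Among the genes drawn, METH lies above PBS in all but RAB36 and SEC16A.

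RAB GTPases switch between a GTP-bound form on membranes and a GDP-bound form in the cytosol, and each marks its own compartment. Of the 22 in the table, 13 were called higher, 4 lower and 5 in neither direction, with a median log2 fold change of 0.62 (33.3% higher and 35.8% lower over the whole table). The 17 calls fell to 2 with adjustment over 15724 genes, to 3 without METH 1 or METH 2, to 7 without PBS 12 and to 10 without PBS 10. The RAB3 proteins of secretory vesicles all had positive values, but only RAB3C was called. RAB3C (chr5:58582221-58859394, plus strand) was at 21.6, 17.0 and 19.8 CPM with PBS and 57.3, 44.0 and 30.7 CPM with METH. The PBS libraries were close together, and the METH libraries were spread more widely without reaching them (1.13 ± 0.254, adjusted p 0.0181). RAB3A, the main RAB3 of synaptic vesicles, was at 31.0, 69.6 and 57.6 CPM with PBS and 87.1, 85.5 and 52.1 CPM with METH. METH 3 was thus below 2 PBS libraries, and RAB3A did not pass (0.55 ± 0.331, adjusted p 0.153), nor did RAB3D (0.37, adjusted p 0.142).

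RAB3IL1 (chr11:61897301-61920269, minus strand), an exchange factor that loads RAB3 proteins with GTP, was at 6.65, 14.4 and 11.9 CPM with PBS and 29, 26.0 and 18.1 CPM with METH. PBS 11 and METH 3 were the nearest libraries of the groups and did not overlap. The log2 fold change was 1.18 ± 0.317 (adjusted p 0.0271). RAB26, which acts at secretory granules, was called higher (0.85, adjusted p 0.0712), but METH 3 at 5.67 CPM lay within the PBS range of 3.51 to 6.25 CPM.

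RAB GTPases described at endosomes did not all move alike. This set was no fixed group but was picked from the 22 RAB genes with earlier results known. Its counts thus cannot show an excess over the table. Of this set 6 were called higher (33.3% of the whole table was), RAB7A and RAB4B passed in neither direction, and RAB36, given below, was called lower. RAB39A, also called lower, was not counted in the set. RAB5A and RAB5B, which drive fusion of early endosomes, had log2 fold changes of 0.53 (adjusted p 0.0856) and 0.56 (adjusted p 0.0436). RAB22A of early and recycling endosomes (0.62, adjusted p 0.0728), RAB31 of transport between the Golgi and endosomes (0.77, adjusted p 0.0421), RAB12 (0.61, adjusted p 0.0504) and RAB29, which recruits the kinase LRRK2 (0.67, adjusted p 0.0388), were called as well. In all 6 genes, listed here because they were called, every METH library lay above every PBS library (31.0% of the table did so). RAB7A, which directs late endosomes to lysosomes, was at 124, 146 and 142 CPM with PBS and 185, 183 and 165 CPM with METH. Its groups did not overlap, but the difference did not pass (0.37 ± 0.193, adjusted p 0.113). Per kilobase of the median length of its coding transcripts, 533 bases, RAB7A had the highest PBS level of the 59 trafficking genes with a length (258 CPM per kb), but with its longest coding transcript, 2244 bases, it was at 61.2 CPM per kb and ranked 4.

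Of the Golgi RABs, RAB30 was at 5.17, 3.06 and 5.18 CPM with PBS and 7.70, 7.80 and 7.20 CPM with METH (0.78 ± 0.270, adjusted p 0.0482). Every METH library exceeded every PBS library. RAB6B, the neuronal RAB6, and RAB33A were also called higher (0.70, adjusted p 0.0696, and 0.67, adjusted p 0.0728), but with overlap between the groups. RAB13, known from junctions and polarised delivery, was called higher (0.61, adjusted p 0.0572), and RAB32 of lysosome-related organelles was not (0.70, adjusted p 0.123). RAB4B of recycling endosomes (0.77, adjusted p 0.105) and the read-through gene RAB4B-EGLN2 (0.63, adjusted p 0.0572) share 1076 exonic bases on the same strand, so the reads of one can be counted for the other and both values are uncertain.

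The 4 RAB genes called lower were RAB36, RAB39A, RAB40A and RAB40B. RAB36 (chr22:23145326-23164350, plus strand), a RAB linked to the positioning of late endosomes and lysosomes, was at 4.66, 6.02 and 7.08 CPM with PBS and 2.97, 3.14 and 2.21 CPM with METH. Every METH library was below every PBS library (-1.06 ± 0.273, adjusted p 0.0244). RAB39A, which acts in phagosome and autophagosome maturation, was at 10.7, 6.96 and 6.47 CPM with PBS and 4.34, 5.57 and 5.36 CPM with METH (-0.62 ± 0.268, adjusted p 0.0783). PBS 10 stood above the other PBS libraries there, and the call was lost without PBS 10 or any METH library. RAB40A (-1.20, adjusted p 0.0386) and RAB40B (-0.83, adjusted p 0.0547) carry a SOCS box and act in ubiquitin ligase complexes rather than as classical vesicle RABs. RAB40A was under 1 CPM in every library, and the groups of RAB40B overlapped.

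Coats and adaptors select cargo and bend the membrane into a vesicle. SEC16A (chr9:136440096-136483759, minus strand), the scaffold of the exit sites of the endoplasmic reticulum, was at 26.4, 23.4 and 30.2 CPM with PBS and 15.7, 16.7 and 17.6 CPM with METH. All METH libraries were below all PBS libraries (-0.67 ± 0.195, adjusted p 0.0334). SEC24D (chr4:118722823-118838683, minus strand), a cargo-binding subunit of the COPII coat that assembles at those sites, was at 18.8, 16.8 and 16.4 CPM with PBS and 22.8, 24.8 and 25.8 CPM with METH. SEC24D thus moved opposite to SEC16A (0.50 ± 0.188, adjusted p 0.0609). COPG1 of the COPI coat (0.34, adjusted p 0.210) and the p24 cargo receptor TMED3 (0.68, adjusted p 0.101) did not pass, and their groups overlapped.

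Of the 5 adaptor genes, 1 was called higher and 1 lower (33.3% and 35.8% over the whole table). SNAP91 (AP180), which assembles clathrin at synapses, was called higher, at 14.2, 12.1 and 9.62 CPM with PBS and 15.0, 19.6 and 17.7 CPM with METH (0.55 ± 0.227, adjusted p 0.0733). AP3M2, the neuronal medium subunit of the AP-3 complex that sorts synaptic vesicle proteins at endosomes, was called lower, at 12.9, 10.9 and 10.4 CPM with PBS and 6.81, 7.98 and 8.94 CPM with METH (-0.53 ± 0.221, adjusted p 0.0748). Neither gene had overlapping groups. The small AP-3 subunit AP3S1 had a value of opposite sign that did not pass (0.49, adjusted p 0.119), nor did AP1G2 of AP-1 (0.54, adjusted p 0.107). AP2M1, the cargo-binding subunit of the endocytic adaptor AP-2, was among the 3 trafficking genes with the most reads per kilobase by either length (119 CPM per kb with PBS by the median length, 109.6 by the longest transcript) and was at 159, 289 and 239 CPM with PBS and 361, 336 and 253 CPM with METH. PBS 11 exceeded METH 3, and the difference did not pass (0.49 ± 0.278, adjusted p 0.134).

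In endosomal sorting, SNX7 (chr1:98661701-98760500, plus strand), a sorting nexin with a membrane-bending BAR domain, was the single gene of 5 to be called. It was at 42.7, 42.5 and 39.1 CPM with PBS and 75.7, 70.3 and 65.0 CPM with METH. The PBS libraries differed little and all METH libraries were above them (0.76 ± 0.181, adjusted p 0.0208). SNX4, its partner in recycling from endosomes (0.52, adjusted p 0.121), SNX9 of endocytic necks (0.40, adjusted p 0.112), SNX14 (0.43, adjusted p 0.171) and the lipid transfer protein VPS13A (-0.64, adjusted p 0.192) did not pass. TRAPPC9, a subunit of the TRAPP tethering complex, was called higher with overlapping groups (0.57, adjusted p 0.0984) and lost the call with 1 added in place of 0.1 before log2 and with limma run without a trend.

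Among the genes named SEC that do not build coats, SEC11A, the catalytic subunit of the signal peptidase, was at 142, 204 and 127 CPM with PBS and 226, 202 and 189 CPM with METH. The groups overlapped (0.41 ± 0.236, adjusted p 0.140). The lipid-binding SEC14L1 did not pass (0.35, adjusted p 0.123). SEC14L5 was called lower (-1.43 ± 0.665, adjusted p 0.0910) at under 1 CPM, with METH 2 at 0.704 CPM within the PBS range, and edgeR did not call it (adjusted p 0.251).

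**Figure D3:**
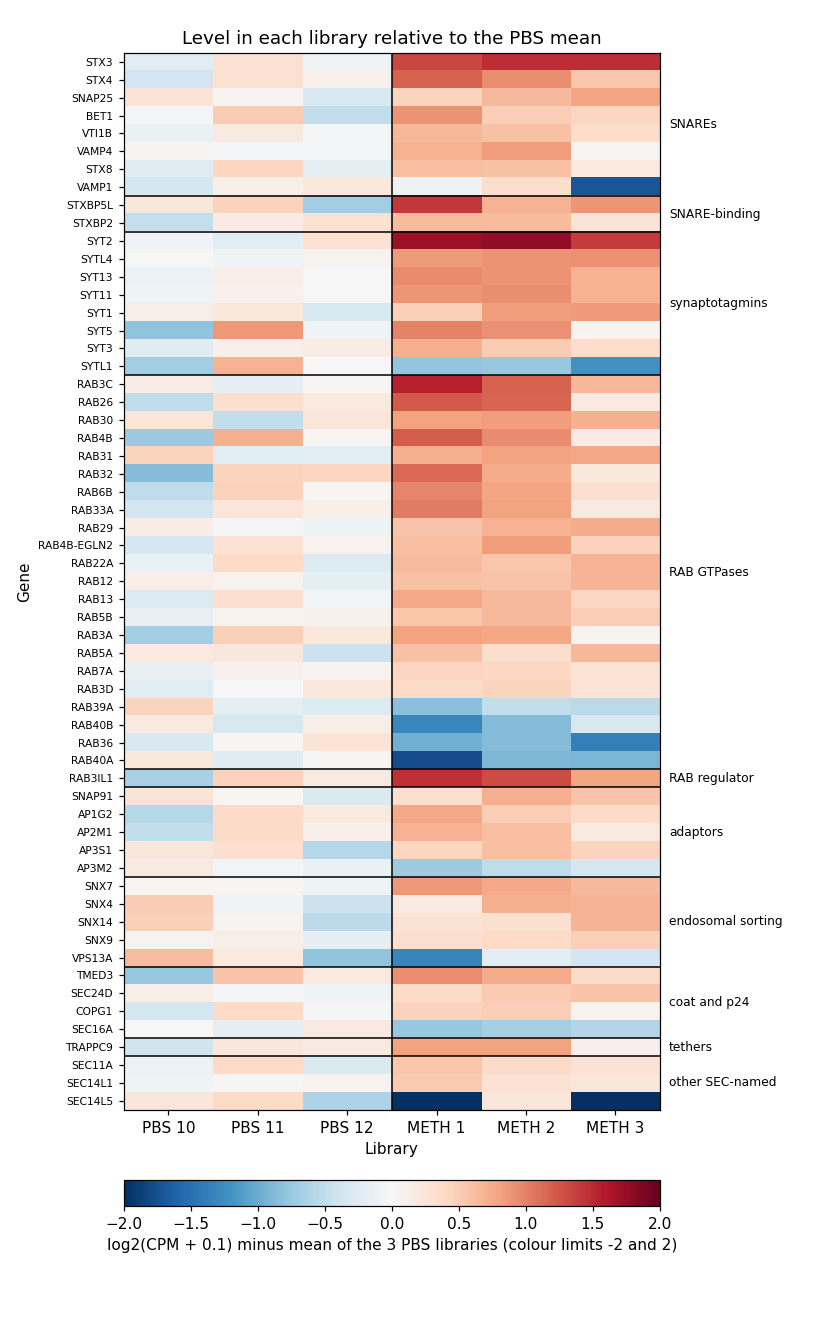
Level of 59 of the 60 trafficking genes (y axis, by role) in each of the 6 libraries (x axis), as log2(CPM + 0.1) minus the mean of the PBS libraries, with red for higher and blue for lower. METH columns are mostly red, and METH 3 is paler than METH 1 and METH 2 in many genes, with medians over the 60 genes of 0.37, 0.63 and 0.65.

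The libraries of a group did not lie equally far from the other group. The median log2 ratio of the 60 genes to the PBS mean was -0.11 in PBS 10, 0.17 in PBS 11 and -0.00 in PBS 12, and 0.63 in METH 1, 0.65 in METH 2 and 0.37 in METH 3. METH 3 was the lowest METH library in 37 of the 60 genes, and PBS 11 the highest PBS library in 33. The genes of the table took 19.29% of the reads of METH 3 and 22.98% to 24.33% of those of the other libraries.

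These differences within a group followed base composition. Across the 59 trafficking genes with a coding transcript, the difference between PBS 11 and PBS 10 in log2 level had a Pearson r of 0.632 (Spearman rho 0.642) with transcript GC, and the difference between METH 1 and METH 3 an r of 0.449 (rho 0.477). The differences themselves had an r of 0.703 with each other, and 33 genes were higher in both PBS 11 and METH 1. These are correlations across genes, which are not independent replicates, and the pairs of libraries were picked with their values in view. The table showed r values of 0.519 and 0.450 with GC over 3515 genes, so this was not particular to trafficking genes. The log2 fold change with METH had an r of -0.115 with GC across the 59 genes. Genes with overlapping groups had a median GC of 53.29%, and genes with all METH libraries above PBS 45.91%.

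**Figure D4:**
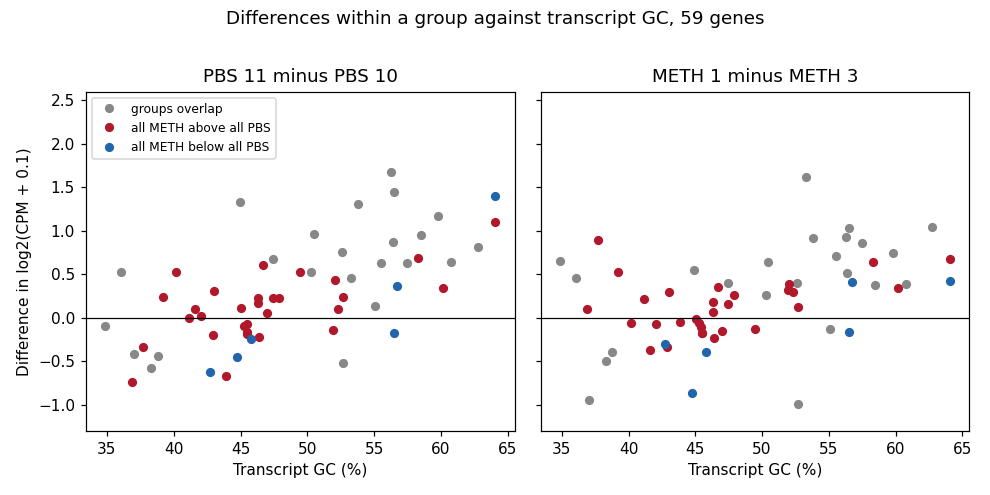
Difference in log2(CPM + 0.1) between PBS 11 and PBS 10 (left) and between METH 1 and METH 3 (right) on the y axis against transcript GC in percent on the x axis, for 59 trafficking genes. Both differences rise with GC (r 0.632 and 0.449), and the genes with overlapping groups (grey) have a higher median GC than the genes with all METH libraries above PBS (red), 53.29% against 45.91%.

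The proteins that work with the 60 genes but carry other names were followed with 5 lists of known partners, to be read against the table's 50.4% positive, 33.3% called higher and 35.8% called lower. Of 13 genes of dense-core vesicle cargo and processing, 9 were in the table. All 9 had positive log2 fold changes, with a median of 0.92, and 8 were called higher. PCSK2, a convertase that cuts prohormones in dense-core vesicles, was at 1.23, 1.83 and 1.27 CPM with PBS and 6.89, 7.96 and 5.16 CPM with METH. The groups were well apart (2.13 ± 0.289, adjusted p 0.00401). Other called cargo genes were the carboxypeptidase CPE (1.20, adjusted p 0.00679), the granins CHGB (0.92, adjusted p 0.0205), SCG2 (0.83, adjusted p 0.0338) and SCG3 (0.70, adjusted p 0.0280), the peptide precursor VGF (1.41, adjusted p 0.0556), PCSK1 (1.50, adjusted p 0.0390) and the granule membrane protein PTPRN (0.83, adjusted p 0.0809). PTPRN and VGF had overlapping groups, and PCSK1N did not pass (0.65, adjusted p 0.146). PCSK1 was under 1 CPM in every library, with group means of 0.127 CPM with PBS and 0.489 CPM with METH.

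Of 40 genes of fusion, priming and vesicle proteins, 7 were in the table, all with positive values (median 0.64), and 5 were called higher. PCLO, a scaffold of the presynaptic active zone, was at 3.80, 2.48 and 1.81 CPM with PBS and 4.17, 5.07 and 4.84 CPM with METH (0.83 ± 0.309, adjusted p 0.0576). Its groups did not overlap, but PBS 10 was close to METH 1. Of 31 ER-Golgi partners, 7 were in the table, 6 positive and 5 called higher (median 0.60), led among those without overlap by the Golgi matrix protein GOLGA2 (0.72 ± 0.195, adjusted p 0.0284).

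Of 50 endocytosis and endosome partners, 9 were in the table, 6 positive, 5 called higher and 2 lower (median 0.49). The ESCRT-III subunit CHMP5 was higher (0.66 ± 0.225, adjusted p 0.0472), and STON2, an AP-2 partner that sorts synaptotagmin into endocytic vesicles, was lower (-1.25 ± 0.379, adjusted p 0.0362). Of 32 RAB and ARF regulators, 15 were in the table, 11 positive, 4 called higher and 2 lower (median 0.47), both shares of calls being below those of the table. IQSEC3, an ARF exchange factor of synapses, was higher (1.62 ± 0.254, adjusted p 0.00710), and TBC1D2B, a RAB GTPase-activating protein, was lower (-0.94 ± 0.208, adjusted p 0.0171). Adjusted over 15724 genes, limma called 3 cargo genes, 2 regulators and 0 genes of each other list (623 of the 4101 genes of the table). Called genes of the lists that held whichever library was left out numbered 3 in the cargo list, 3 among the regulators and 0 in the other lists. Over the 4101 genes of the table such calls numbered 801. With edgeR the higher calls numbered 7 in the cargo list, 4 in the fusion list, 3 among the ER-Golgi partners, 4 among the endocytosis partners and 4 among the regulators.

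Cell type markers were read beside these results, against the table's 33.3% called higher and 35.8% called lower. Of 17 noradrenergic neuroblastoma markers, 7 were in the table. Of these 5 were called lower, among them the transcription factor GATA2, the transporter SLC6A2 and the enzyme DDC, while CHGB and the vesicular monoamine transporter SLC18A2 were called higher. Their summed level was 940 to 1059 CPM with PBS and 905 to 979 CPM with METH, a sum of opposite changes: the mean of GATA2 went from 441 to 270.2 CPM and that of CHGB, which is also in the cargo list, from 243 to 459 CPM. Of 8 mesenchymal markers, DCN, LUM and VIM were in the table and all were called higher. The summed level of these was 289 to 493 CPM with PBS and 574 to 847 CPM with METH. Most of that sum was VIM, at 263 to 474 CPM with PBS and 533 to 801 CPM with METH. Of 6 glial markers ERBB3 was in the table at 0.268 to 0.785 CPM, and of 4 epithelial markers there were 0. The part of these shifts in the values of the trafficking genes was not tested, and in bulk RNA a change in the share of cells of a type cannot be told apart from a change in RNA per cell.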

How the data were processed

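Total RNA of SH-SY5Y cells was sequenced on a HiSeq platform, per the labels from SMARTER mRNA-Seq libraries. The aligner, counter, strand setting and genome build are not given in the sources used here. The authors deposited 4101 genes with values per library that are headed FPKM. Within each column every value was a whole multiple of 1 step (tolerance 0.0006 CPM), so the deposited values were used as CPM, reads scaled to the library total without correction for length. The authors also deposited group means and their own DESeq2 comparison, as a fold change (ratio), a log2 fold change and p-values. Of these only the p-values were read, to see how genes were selected and how many were tested. PBS columns carry the numbers 10, 11 and 12, which no label has, and were assigned to the group only.

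METH was compared with PBS by limma 3.58.1 (R 4.3.3, eBayes with trend) on log2(CPM + 0.1). P-values were adjusted by Benjamini-Hochberg over 4101 genes, with a threshold of 0.1. A fold change on this scale understates the change of genes with low values. The smallest 2-sided p of an exact permutation test of 3 against 3 libraries is 0.1, so none is given for single genes. Reads recovered from the steps were also tested with edgeR 4.0.16 and DESeq2 1.42.0. Differences in level between genes were read as CPM per kilobase of the median length of the coding transcripts (GENCODE basic set), with the longest one as an alternative added after seeing the data. Transcript GC is that of the longest coding transcript. Positions are from GENCODE release 29 on GRCh38, which holds 4093 of the gene identifiers, and promoter windows from RefSeq.

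The 60 genes and all lists were chosen with earlier results of these data known, the partner lists also with names of the table seen. Genes named with values in every library are VTI1B, BET1, SNAP25, SYT1, up to 2 per direction and role with the largest called change, no overlap and a group mean not under 1 CPM, the 3 with the most reads per kilobase, and the leading genes of each list. SYT11, RAB3A and VAMP1 were added after their values were seen. GC correction, and adjustment of edgeR over 15724 genes, were added after seeing the data. Values of 1 of the 60 genes and of some cell type markers are not reported here, although the counts include them.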

Additional observations from a re-analysis of the deposited data

How the results depend on the processing

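No paired analysis was possible because the numbers of the PBS columns do not match those of the labels or of the METH libraries. Of the 60 genes, 5 were called higher and 1 lower with adjustment over 15724 genes (7.71% and 7.49% of the table). At an adjusted p of 0.05 the calls numbered 16 higher and 3 lower. Leaving out 1 library gave 6 to 43 higher and 1 to 6 lower calls. Over the 4101 genes of the table the higher calls then numbered 412 to 1551. The cause of the fall in calls without METH 1, METH 2 or PBS 12 was not tested. VAMP1 ranged from -0.90 to 0.13 on the log2 scale when a library was left out, reversing without METH 3. Other pseudocounts (1 or 0.01), a filter of 1 CPM, limma without trend, median-ratio scaling, edgeR with and without TMM, and DESeq2 gave 28 to 34 higher and 6 to 8 lower calls, each within 1.5 times of the values reported. The number of genes with positive values was 49 to 51 and the median log2 fold change 0.47 to 0.66 in all settings run. With libraries corrected for their trend with transcript GC, 45 higher and 8 lower calls were made among 59 genes, against 30 and 8 in the same genes without it. Calls also rose over all genes of the table with a GC value. There, higher calls went from 1214 without the correction to 1562 with it, and all calls from 2351 to 2992. The rise was thus not confined to trafficking genes. The corrected fit does not count the degrees of freedom of the trend. Every group has 3 libraries, and values under 1 CPM rest on few reads, as few as 3 for SEC14L5 in METH 1.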

Other observations

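The genes left out of the trafficking genes as antisense or pseudogenes had values of their own. STXBP5-AS1, antisense to the tomosyn gene STXBP5, was at 0.253, 0.380 and 0.129 CPM with PBS and 1.27, 1.86 and 1.45 CPM with METH. The groups did not overlap, and limma called it higher (2.25 ± 0.368 on the log2 scale, adjusted p 0.00825). EXOC3-AS1, antisense to the exocyst gene EXOC3, was at 4.66, 3.94 and 5.06 CPM with PBS and 1.28, 1.97 and 1.46 CPM with METH. It was called lower (-1.49 ± 0.276, adjusted p 0.0103), with every METH library below every PBS library. Both calls held whichever library was left out. SCAMP1-AS1 was also called lower (-0.68, adjusted p 0.0852), while STX18-AS1 (-0.52, adjusted p 0.104) and the pseudogene SNX29P2 (0.83, adjusted p 0.112) did not pass. Without a known strand setting, reads on exonic bases that an antisense gene shares with its partner cannot be told apart. STXBP5-AS1 shared 190 of its 6011 exonic bases with STXBP5, and STX18-AS1 187 of 6107 with STX18. EXOC3-AS1 shared 3 of 1663 with EXOC3, and SCAMP1-AS1 shared no exonic bases with SCAMP1. STXBP5, EXOC3, SCAMP1 and STX18 themselves were not analysed here.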
